A study of Mus musculus with 9 samples.

Results

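Long noncoding RNAs were examined in mouse microglia stimulated with a Toll-like receptor ligand, a type I interferon or both. The genes Malat1, Neat1, Gas5, Meg3, Snhg1, Snhg5, Snhg12 and Dleu2 were matched by symbol and all 8 were found among the 24411 gene rows. Of these, 7 passed the filter on low counts and stood among the 11002 genes tested, and Snhg12, with 3 to 10 counts per library, did not. Primary microglia came from the brains of ICR mouse pups 3 days old, were shaken off mixed glial cultures and were stimulated for 4 h. Cells were given 1 µM R848 together with 100 U/ml IFN-α (R848+IFN-α), 1 µM R848 alone (R848) or 100 U/ml IFN-α alone (IFN-α), with 3 libraries in each group. R848 is a small-molecule agonist of Tlr7 in mice, and IFN-α acts through the type I interferon receptor. Untreated cells are not analysed here, so each value below sets 1 treatment against another and none is a response relative to unstimulated cells.

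Long noncoding RNAs are transcribed and often spliced like messenger RNAs but are not known to be read as long proteins. Malat1 resides in nuclear speckles, where splicing factors gather, and Neat1 is the scaffold on which paraspeckles, another kind of nuclear body, assemble. Gas5, Snhg1, Snhg5 and Snhg12 carry small nucleolar RNAs in their introns, and their spliced transcripts are often removed by nonsense-mediated decay. Meg3 is an imprinted RNA expressed from the maternal chromosome, and Dleu2 is the host transcript of the microRNAs miR-15a and miR-16.

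Malat1 and the long form of Neat1 end without a poly(A) tail. An RNA triple helix, in which U-rich stretches fold onto an A-rich tract, protects each 3′ end. The libraries were made from RNA depleted of ribosomal RNA and primed with random oligonucleotides, so these transcripts could be counted without a tail. The 110 bases that end with the A-rich tract are shown because this end is what both RNAs share. Capitals mark the U-rich stretches, written with T, and the A-rich tract. The Malat1 stretch lies at chr19:5795982-5796091 and the Neat1 stretch at chr19:5824708-5824817, both on the minus strand of GRCm38, in exons of GENCODE release M21.
Malat1: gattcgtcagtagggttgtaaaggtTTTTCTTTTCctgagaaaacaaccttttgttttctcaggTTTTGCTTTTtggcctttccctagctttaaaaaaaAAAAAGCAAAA
Neat1: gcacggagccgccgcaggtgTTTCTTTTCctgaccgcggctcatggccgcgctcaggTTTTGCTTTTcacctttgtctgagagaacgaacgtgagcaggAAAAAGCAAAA

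The small nucleolar RNA host genes were examined at the opposite end. Transcripts of this class typically begin with a pyrimidine tract of the 5′ TOP kind, which also marks messenger RNAs of the translation machinery. The 100 bases around the start site, from RefSeq promoters on GRCm38.p6, are shown because the host genes are set against that class of messenger RNA below. Capitals mark the longest run of C and T that begins within 10 bases of the annotated start. The runs begin at position -1 for Gas5, -3 for Snhg12, 5 for Snhg1 and 8 for Snhg5, relative to that start. Those of Snhg1 and Snhg5 thus lie inside it, and whether transcripts begin with them was not tested. In the other Gas5 entry, not shown, the longest run has 3 bases. The windows are chr1:161035116-161035215 on the plus strand for Gas5, chr19:8723437-8723536 on the plus strand for Snhg1, chr9:88522848-88522947 on the minus strand for Snhg5 and chr4:132308628-132308727 on the plus strand for Snhg12.
Gas5: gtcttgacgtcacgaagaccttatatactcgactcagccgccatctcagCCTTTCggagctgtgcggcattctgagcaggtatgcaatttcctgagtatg
Snhg1: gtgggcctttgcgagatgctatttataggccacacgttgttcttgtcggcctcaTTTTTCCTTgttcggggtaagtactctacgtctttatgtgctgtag
Snhg5: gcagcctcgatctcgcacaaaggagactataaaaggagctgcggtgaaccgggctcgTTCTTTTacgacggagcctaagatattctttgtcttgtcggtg
Snhg12: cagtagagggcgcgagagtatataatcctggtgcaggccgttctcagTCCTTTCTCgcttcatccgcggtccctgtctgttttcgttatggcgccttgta

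A run of at least 6 pyrimidines beginning within 10 bases of the start was present in these 4 of the 9 promoter entries that matched 7 of the 8 genes, and in 23.1% of the 32851 promoters in the same set. Some genes have more than 1 entry: Gas5 and Meg3 had 2 each. Neat1 had no entry. Both strands of the 300-base promoters, from 250 bases before to 50 after the start, were also searched for the cores of response elements. The interferon-stimulated response element, searched as TTTC and TTTC with any 2 bases between, was in none of the 9 entries and in 3.44% of all promoters. The gamma-activated site, searched as TTCNNNGAA, was in none of the 9 entries and in 8.30% of all promoters. The NF-κB core, searched as GGG and CC with any 5 bases between, was in 4 of the 9 entries and in 50.8% of all promoters.

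Gene counts per library ran from 2505941 to 6005578, the deepest being replicate 3 of the R848+IFN-α group. Levels are given as CPM, counts scaled to a common library total with TMM factors that were 0.832 to 0.892 in the R848+IFN-α group, 1.05 to 1.17 in the R848 group and 0.954 to 1.11 in the IFN-α group. All 12 microglial markers were detected in each group, with summed levels of 3281 to 3614 CPM in R848+IFN-α libraries, 2940 to 3100 CPM in R848 libraries and 4572 to 4945 CPM in IFN-α libraries. The 11 astrocyte markers summed to 2501 to 3572 CPM, 1563 to 1766 CPM and 1210 to 1528 CPM in R848+IFN-α, R848 and IFN-α libraries. Markers of oligodendrocyte lineage cells summed to at most 753 CPM in any library, of fibroblasts to at most 384 CPM, of neurons to at most 175 CPM and of endothelial cells to at most 65.1 CPM. The endothelial marker Cldn5 was listed at 0 in all R848+IFN-α and IFN-α libraries, and no other marker was at 0 throughout a group. In such bulk libraries fewer cells of a type and less RNA per cell cannot be told apart.

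The 8 RNAs were not all abundant. Malat1 ranked 40 by mean CPM among the 11002 genes tested and Neat1 ranked 1629. Gas5 ranked 5193, Snhg1 6010, Dleu2 7230, Snhg5 8352 and Meg3 8957, which places the last 4 in the lower part of the genes tested. Over the 9 libraries the mean level per kilobase of merged exon was 221 CPM per kb for Malat1, 6.12 CPM per kb for Gas5, 6.03 CPM per kb for Snhg1, 4.84 CPM per kb for Snhg5 and 4.39 CPM per kb for Neat1. Dleu2 stood at 1.07 CPM per kb, Snhg12 at 0.885 CPM per kb and Meg3 at 0.369 CPM per kb. The library values of Gas5, Snhg1, Snhg5 and Neat1 overlapped one another, with SDs of 1.17 to 1.78 CPM per kb over the 9 libraries. The order of Neat1 depends on its length: over the 3004 bases of its short transcript its level would be 30.4 CPM per kb in place of 4.39 CPM per kb. Levels of the other RNAs except Malat1 also depend on the length used. Over the longest transcript of each gene, Gas5 would stand at 9.005 CPM per kb, Snhg5 at 6.86 and Snhg1 at 6.57. On that length Dleu2 would stand at 2.96 CPM per kb, Snhg12 at 1.38 and Meg3 at 0.458. Snhg5 then lies above Snhg1, while Malat1 stays highest and Meg3 lowest in mean. The exon lengths behind the deposited counts are not given in the sources used here.

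**Figure D1:**
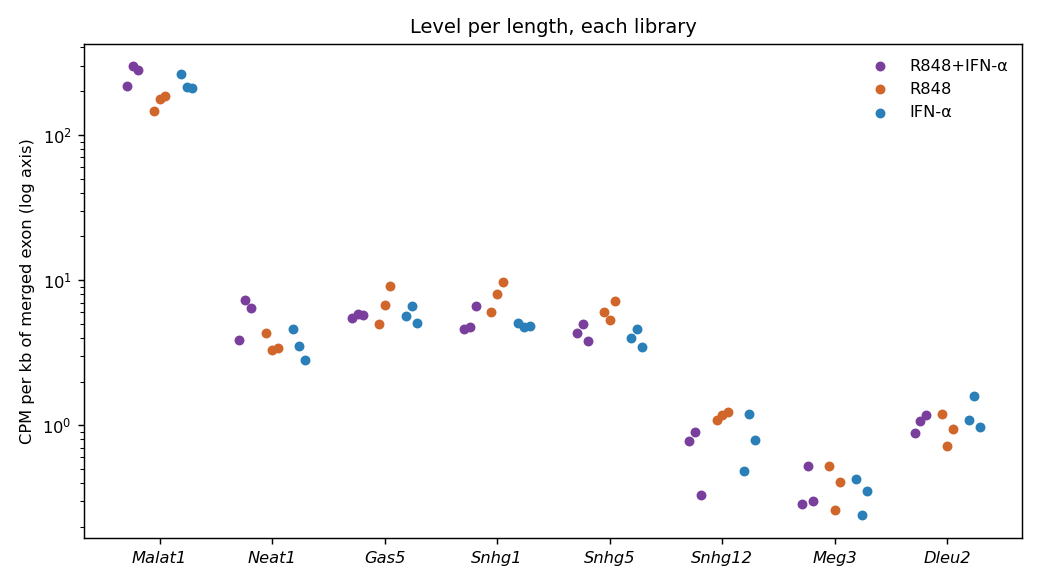
Level per length of the 8 long noncoding RNAs in each library, in CPM per kb of merged exon on a log axis, with 1 point per library and groups by colour. Malat1 lies above all others in every library, with a mean of 221 CPM per kb, and Meg3 lies lowest in mean, at 0.369 CPM per kb.

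Malat1 was lower in the R848 group than in both other groups. This largely unspliced nuclear RNA, at chr19:5795690-5802672 on the minus strand (ENSMUSG00000092341.3), had 1509, 2067 and 1958 CPM in R848+IFN-α libraries, 1015, 1227 and 1301 CPM in R848 libraries and 1832, 1502 and 1478 CPM in IFN-α libraries. Every R848 library lay below every library of the other groups, while the R848+IFN-α and IFN-α libraries overlapped. These levels rest on 3524 to 9783 counts per library. Means were 1845 ± 296 CPM in R848+IFN-α, 1181 ± 149 CPM in R848 and 1604 ± 198 CPM in IFN-α (SD, n = 3 each).

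Malat1 rose in R848+IFN-α against R848, with a log2 fold change of 0.64 ± 0.11 (SE) and an adjusted p of 5.14e-05 in edgeR's quasi-likelihood test. It fell in R848 against IFN-α, with a log2 fold change of -0.44 ± 0.11 and an adjusted p of 0.00236. Between R848+IFN-α and IFN-α the log2 fold change was 0.20, with a 95% interval of -0.03 to 0.43 and an adjusted p of 0.171. Across the 3 groups together its adjusted p was 1.12e-04. The ribosomal transcript Rn45s made up 13.3%, 21.0% and 19.8% of gene counts in R848+IFN-α libraries, 22.003%, 16.9% and 14.8% in R848 libraries and 26.1%, 16.5% and 16.0% in IFN-α libraries, so the groups overlapped. With Rn45s left out of library totals, the log2 fold changes of Malat1 were 0.65 in R848+IFN-α against R848 (adjusted p = 4.06e-05) and -0.45 in R848 against IFN-α (adjusted p = 0.00180). TMM factors were computed anew there and take up much of a change in totals, so these values say little about Rn45s. Of gene counts without Rn45s, Malat1 made up 0.155% to 0.218% in R848+IFN-α libraries, 0.137% to 0.178% in R848 libraries and 0.195% to 0.237% in IFN-α libraries. By these shares the R848+IFN-α and R848 libraries overlapped. The row Mir6236 had the same order of means as Malat1, at 23036 ± 6389 CPM in R848+IFN-α, 13537 ± 2016 CPM in R848 and 19625 ± 3998 CPM in IFN-α (SD, n = 3 each), and its part in the Malat1 values was not tested.

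The first of these calls depended on how libraries were scaled. As a share of all gene counts, with no scaling factor, Malat1 made up 0.135%, 0.172% and 0.163% in R848+IFN-α libraries, 0.107%, 0.138% and 0.152% in R848 libraries and 0.175%, 0.166% and 0.164% in IFN-α libraries. On that scale the R848+IFN-α and R848 libraries overlapped. With library totals alone the log2 fold change of R848+IFN-α against R848 was 0.24 with an adjusted p of 0.114, while the median over all tested genes stood at -0.42 on the same scale, a shift of -0.39. The fall in R848 against IFN-α lost its call without R848 replicate 1, with a log2 fold change of -0.36 and an adjusted p of 0.0806. Without R848+IFN-α replicate 1, the lowest of its group, R848+IFN-α against IFN-α passed the threshold at 0.33 with an adjusted p of 0.0174.

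**Figure D2:**
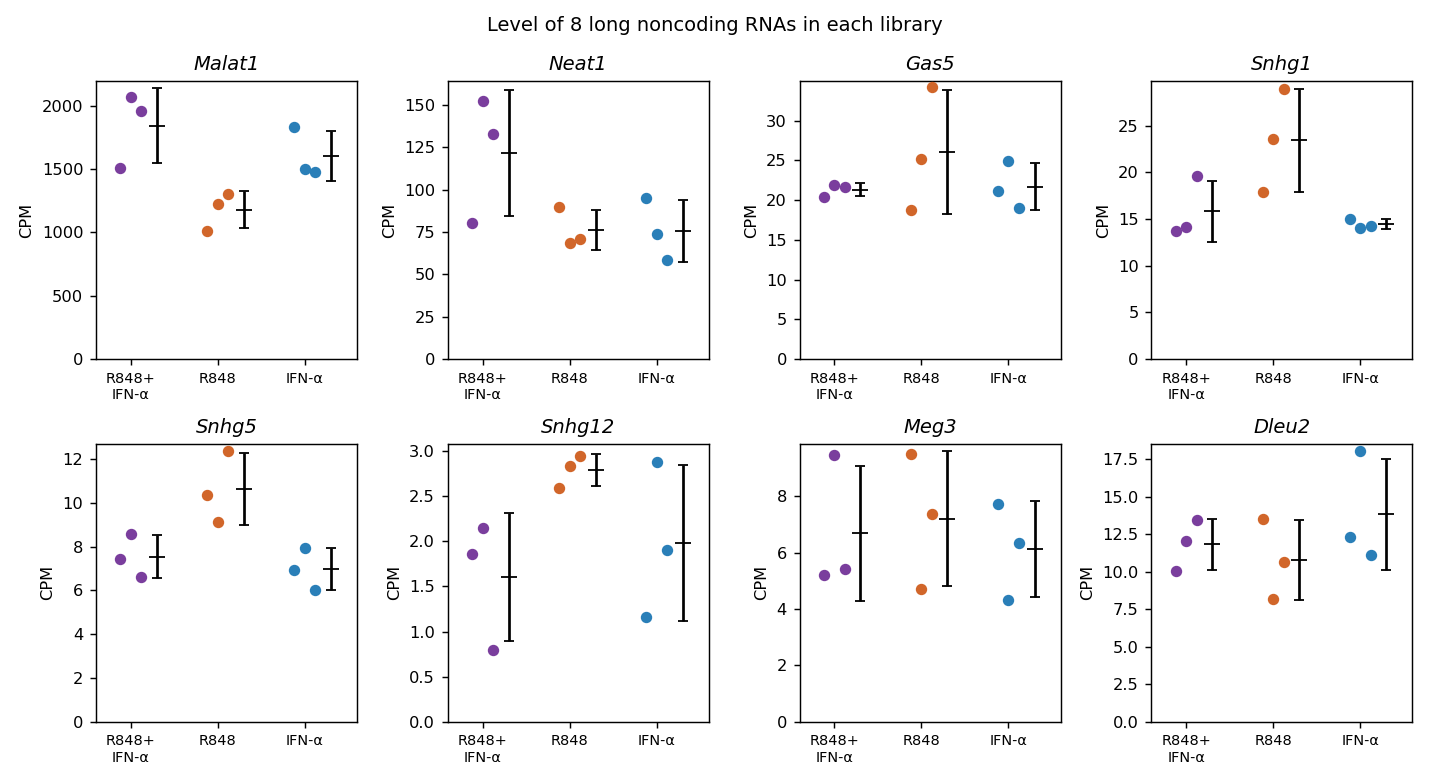
Level of each of the 8 long noncoding RNAs in CPM, with 1 point per library and, beside each group, the mean with its SD (n = 3); each panel has its own axis from 0. Malat1 is lower in the 3 R848 libraries, at 1015 to 1301 CPM, than in the other 6, and Snhg1 is higher in the R848 libraries, at 17.9 to 28.9 CPM, than in the IFN-α libraries.

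Neat1 had its highest levels in the R848+IFN-α group, but the libraries did not separate. It lies at chr19:5824708-5845478 on the minus strand (ENSMUSG00000092274.3), 22.035 kb from Malat1, and gives a short polyadenylated and a long transcript from 1 promoter. Its level was 80.3, 152 and 133 CPM in R848+IFN-α libraries, 89.9, 68.3 and 70.7 CPM in R848 libraries and 94.8, 73.5 and 58.6 CPM in IFN-α libraries. The R848+IFN-α replicates 2 and 3 stood above all other libraries, and replicate 1 fell within the range of the single agents. Log2 fold changes were 0.67 ± 0.25 in R848+IFN-α against R848 (adjusted p = 0.0713), 0.70 ± 0.26 in R848+IFN-α against IFN-α (adjusted p = 0.0721) and 0.02 ± 0.26 in R848 against IFN-α (adjusted p = 0.960), none called. Without R848+IFN-α replicate 1 they were 0.89 against R848 and 0.92 against IFN-α, with adjusted p-values of 4.04e-05 and 3.79e-05. Leaving out IFN-α replicate 1 also brought both under the threshold, at adjusted p-values of 0.0296 and 0.0202, and leaving out IFN-α replicate 3 did so for R848+IFN-α against R848, at 0.0366. Of 20 alternatives in all, 6 called Neat1 in R848+IFN-α against R848 and 5 in R848+IFN-α against IFN-α, among them non-robust estimation, at adjusted p-values of 0.00327 and 0.00308, and no filter on low counts, at 9.48e-06 and 7.68e-06.

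Neat1 counts came to 5.32%, 7.36% and 6.79% of Malat1 counts in R848+IFN-α libraries, 8.85%, 5.57% and 5.44% in R848 libraries and 5.18%, 4.89% and 3.96% in IFN-α libraries. This ratio needs no scaling between libraries. All R848+IFN-α and R848 libraries lay above all IFN-α libraries, and the R848+IFN-α and R848 libraries overlapped. In R848 and IFN-α the Neat1 means were 76.3 and 75.6 CPM, and the Malat1 means were 1181 and 1604 CPM. Between these groups the ratio thus differed by the level of Malat1 more than by that of Neat1. Summed astrocyte markers were also highest in the R848+IFN-α group. There 10 of the 11 markers passed the test as higher than in R848 (4 with library totals alone) and 6 as higher than in IFN-α. Of all tested genes 19.2% and 18.5% were called higher in these comparisons. In R848 against IFN-α 2 of the markers rose and 4 fell, where 18.4% of all tested genes were called higher and 19% lower. The part of these markers in the Malat1 and Neat1 values was not tested.

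Snhg1 was the host gene, of the 3 tested, that passed the test in the fit to all 9 libraries. It hosts small nucleolar RNAs that guide ribosomal RNA modification, lies at chr19:8723475-8726443 on the plus strand (ENSMUSG00000108414.1) and has a run of 9 pyrimidines just inside its annotated RefSeq start, in the window shown above. It had 13.8, 14.2 and 19.6 CPM in R848+IFN-α libraries, 17.9, 23.6 and 28.9 CPM in R848 libraries and 15.03, 14.1 and 14.2 CPM in IFN-α libraries, from 33 to 98 counts per library. The R848 libraries stood above all IFN-α libraries, and R848+IFN-α replicate 3 overlapped with the lowest R848 library.

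Snhg1 rose in R848 against IFN-α, with a log2 fold change of 0.70 ± 0.20 and an adjusted p of 0.00622. It fell in R848+IFN-α against R848, with a log2 fold change of -0.51 ± 0.19 and an adjusted p of 0.0373. Its log2 fold change in R848+IFN-α against IFN-α was 0.18, with a 95% interval of -0.25 to 0.62 and an adjusted p of 0.550. The fall was lost in DESeq2 (adjusted p = 0.102), with only both compared groups in the fit (0.0519), without R848 replicate 2 (0.0749) or 3 (log2 fold change -0.33, adjusted p = 0.241), and without R848+IFN-α replicate 1 (0.145) or 2 (0.121). The rise against IFN-α was lost without R848 replicate 3, at a log2 fold change of 0.52 and an adjusted p of 0.0661.

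Snhg5 and Gas5 also had their highest means in the R848 group but did not pass the test. Snhg5, a host gene at chr9:88521050-88522929 on the minus strand (ENSMUSG00000097195.9), had 7.43, 8.60 and 6.60 CPM in R848+IFN-α libraries, 10.4, 9.13 and 12.4 CPM in R848 libraries and 6.94, 7.93 and 6.01 CPM in IFN-α libraries. All R848 libraries lay above all others, with 18 to 42 counts behind each value. Its log2 fold change was -0.53 ± 0.25 in R848+IFN-α against R848 (adjusted p = 0.0957) and 0.62 ± 0.25 in R848 against IFN-α (adjusted p = 0.0567), neither called. With library totals alone they were called, at adjusted p-values of 0.00292 and 0.0384. They were also called with upper-quartile factors, at 0.0315 and 0.0379. Leaving out R848 replicate 2 brought R848 against IFN-α to an adjusted p of 0.0488.

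Gas5, the growth arrest-specific host gene at chr1:161034422-161038539 on the plus strand (ENSMUSG00000053332.13), had 20.4, 21.9 and 21.6 CPM in R848+IFN-α libraries, 18.7, 25.2 and 34.2 CPM in R848 libraries and 21.2, 24.9 and 18.99 CPM in IFN-α libraries. The R848 libraries spanned the range of both other groups. Log2 fold changes were -0.28 ± 0.19 in R848+IFN-α against R848 (adjusted p = 0.245), -0.02 ± 0.20 in R848+IFN-α against IFN-α (0.956) and 0.27 ± 0.19 in R848 against IFN-α (0.292). Without R848 replicate 1, the lowest of its group, it was called in R848+IFN-α against R848 at -0.47 (adjusted p = 0.0271) and in R848 against IFN-α at 0.45 (adjusted p = 0.0373). With library totals alone it was called in R848+IFN-α against R848, at -0.68 and an adjusted p of 0.00360.

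Snhg12, at chr4:132308623-132311024 on the plus strand (ENSMUSG00000086290.9), was counted 5, 5 and 4 times in R848+IFN-α libraries, 9, 9 and 10 times in R848 libraries and 3, 8 and 6 times in IFN-α libraries. All R848 libraries lay above all R848+IFN-α libraries, at 2.59 to 2.95 CPM against 1.86, 2.15 and 0.80 CPM in R848+IFN-α. The highest IFN-α library, at 2.88 CPM, lay within the R848 range. With so few counts no test was made in the fit to filtered genes. With the filter on low counts removed, its log2 fold change was -0.94 ± 0.55 in R848+IFN-α against R848 (adjusted p = 0.263) and 0.47 ± 0.53 in R848 against IFN-α (adjusted p = 0.590).

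Meg3 and Dleu2 did not pass the test in any comparison. Meg3, at chr12:109541001-109571726 on the plus strand (ENSMUSG00000021268.17), had 5.204, 9.46 and 5.40 CPM in R848+IFN-α libraries, 9.50, 4.72 and 7.37 CPM in R848 libraries and 7.71, 4.33 and 6.33 CPM in IFN-α libraries. The groups overlapped throughout, and the 95% intervals of the log2 fold changes ran from -0.81 to 0.46, -0.61 to 0.75 and -0.41 to 0.90 for R848+IFN-α against R848, R848+IFN-α against IFN-α and R848 against IFN-α. With 12 to 33 counts per library, differences within these bounds could not be resolved.

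Dleu2, at chr14:61602839-61682373 on the minus strand (ENSMUSG00000097589.9), had 10.04, 12.03 and 13.4 CPM in R848+IFN-α libraries, 13.5, 8.19 and 10.6 CPM in R848 libraries and 12.3, 18.02 and 11.1 CPM in IFN-α libraries. Here too the 3 groups overlapped. The log2 fold changes were 0.15 ± 0.24 in R848+IFN-α against R848 (adjusted p = 0.655), -0.19 ± 0.23 in R848+IFN-α against IFN-α (0.573) and -0.34 ± 0.24 in R848 against IFN-α (0.274). The hosted microRNAs, which repress target messages by pairing through their seeds, were counted 25 times for Mir15a and 12 times for Mir16-1 over all 9 libraries, too few to test. Their main mature strands, from RefSeq, share 1 seed, which is why they are shown. Capitals mark the seed, bases 2 to 8.
miR-15a-5p: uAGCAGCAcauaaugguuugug
miR-16-5p: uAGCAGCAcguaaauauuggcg

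Over the 8 RNAs, R848+IFN-α against R848 gave 2 calls among the 7 tested, Malat1 higher and Snhg1 lower, where 35.9% of all tested genes were called, 19.2% higher and 16.7% lower. R848 against IFN-α also gave 2 calls of 7, Snhg1 higher and Malat1 lower, against 37.4% of all tested genes, 18.4% higher and 19% lower. R848+IFN-α against IFN-α gave no call of 7, where 33.2% of all tested genes were called, 18.5% higher and 14.7% lower; edgeR's unadjusted p was under 0.05 for 1 of them, Neat1, and DESeq2 called 0. Among the 3 groups together 2 of the 7 were called, Malat1 and Snhg1, where 50.3% of all tested genes were. None of these shares lay above its background. The libraries did not overlap for 2, 0 and 3 of the 7 in R848+IFN-α against R848, R848+IFN-α against IFN-α and R848 against IFN-α, where 45%, 46.2% and 46.5% of all tested genes did not overlap. Median log2 fold changes of the 7 were -0.18, 0.09 and 0.25 in the same order, beside medians over all tested genes of -0.03, -0.01 and 0.02. The comparisons share libraries with one another, so their values are not independent.

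**Figure D3:**
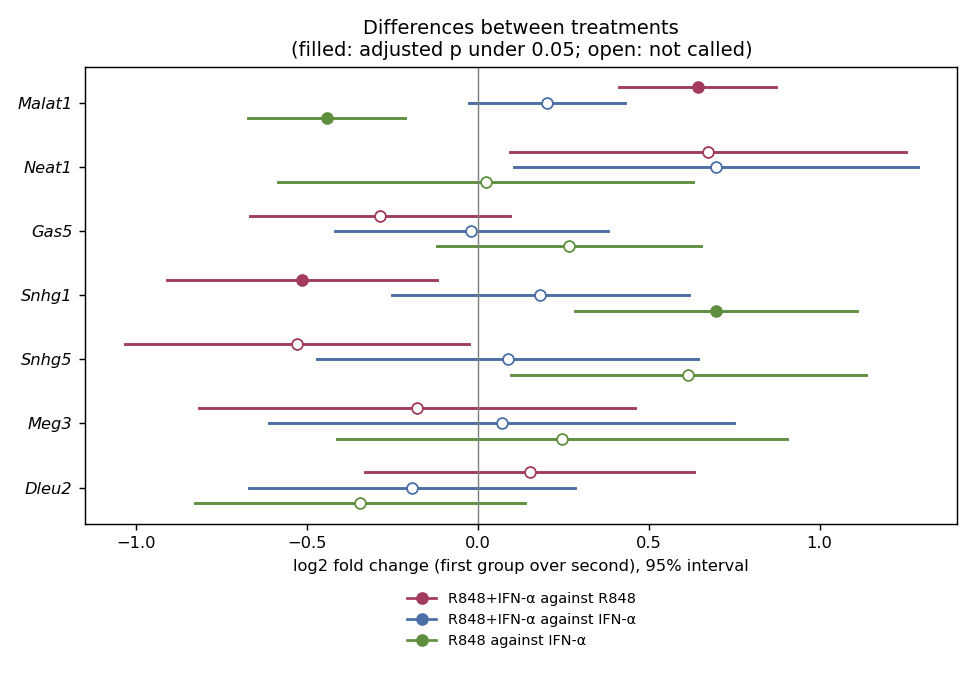
Log2 fold changes of the 7 tested RNAs in the 3 comparisons, with 95% intervals; filled points have an adjusted p under 0.05. Malat1 lies at 0.64 in R848+IFN-α against R848 and at -0.44 in R848 against IFN-α, while Snhg1 has the opposite signs, at -0.51 and 0.70.

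The filled and open points in the plot of fold changes show that 4 of the 21 values were called, all of Malat1 or Snhg1. As a description over the 9 libraries, which share depth and treatment, log2 CPM of Snhg1 correlated with that of Gas5 at r = 0.73 and with that of Snhg5 at r = 0.68, and Gas5 with Snhg5 at r = 0.64. Malat1 correlated with Neat1 at r = 0.65 and with Snhg1 at r = -0.42. Of 9438 genes with at least 5 CPM on average, those most like Malat1 over the 9 libraries were Nek5 at r = 0.98, Mir6236 at 0.96 and Herc1 at 0.96. For Neat1 they were Lamc1 at r = 0.96, Kmt2a at 0.96 and Tnc at 0.94. For Snhg1 they were Foxj3 at r = 0.96, Zrsr2 at 0.95 and Zfp664 at 0.93. The gene most like Gas5 was Trim33 at r = 0.96, like Snhg5 Tsr1 at r = 0.96, like Dleu2 Mcat at r = 0.94 and like Meg3 Lin37 at r = 0.88.

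Each RNA was next set beside its genomic neighbours, first at the Dleu2 locus. Trim13, which encodes a ubiquitin ligase and overlaps the Dleu2 gene on the opposite strand, averaged 32.9 ± 5.06 CPM in R848+IFN-α, 31.1 ± 5.30 CPM in R848 and 8.19 ± 2.21 CPM in IFN-α (SD, n = 3 each). It rose in R848+IFN-α against IFN-α by a log2 fold change of 1.99 ± 0.21 (adjusted p = 5.33e-09) and in R848 against IFN-α by 1.90 ± 0.21 (adjusted p = 8.60e-09). Spryd7, 45.952 kb beyond Dleu2 on its strand, averaged 181 ± 19.3 CPM, 124 ± 7.37 CPM and 35.7 ± 7.59 CPM in R848+IFN-α, R848 and IFN-α. Its log2 fold changes were 0.55 in R848+IFN-α against R848, 2.34 in R848+IFN-α against IFN-α and 1.79 in R848 against IFN-α, all called, the first not with library totals alone (0.16, adjusted p = 0.361). Dleu2 itself stayed between -0.34 and 0.15 on the same log2 scale with no call. Kcnrg, also overlapping Dleu2 on the opposite strand, had 12 counts in all.

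**Figure D4:**
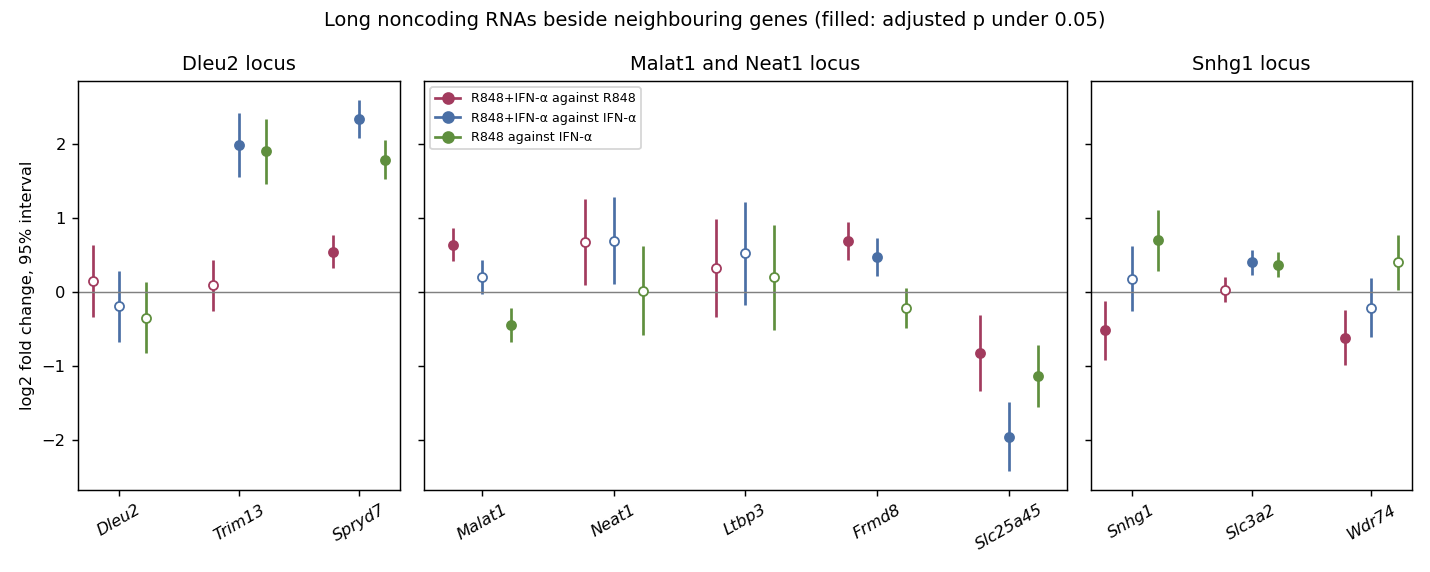
Log2 fold changes with 95% intervals of long noncoding RNAs and neighbouring genes at the Dleu2, Malat1 and Neat1, and Snhg1 loci, in the 3 comparisons; filled points have an adjusted p under 0.05. Trim13 and Spryd7 lie between 1.79 and 2.34 in both comparisons with IFN-α, where Dleu2 lies at -0.19 and -0.34 with open points.

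At the Malat1 and Neat1 locus, Frmd8 and Slc25a45 passed the test. Frmd8, which encodes a partner of the iRhom proteins that traffic a TNF-releasing protease, averaged 67.8 ± 6.47 CPM in R848+IFN-α, 42.2 ± 3.31 CPM in R848 and 49.1 ± 3.43 CPM in IFN-α. It rose in R848+IFN-α against R848 by 0.69 ± 0.13 on the log2 scale (adjusted p = 4.92e-05), a call lost with library totals alone (0.30, adjusted p = 0.0801), and against IFN-α by 0.48 ± 0.13 (adjusted p = 0.00346), which was also lost on that scale (0.17, adjusted p = 0.370). Slc25a45, of the mitochondrial carrier family, averaged 7.59 ± 1.65 CPM, 13.1 ± 1.81 CPM and 28.9 ± 8.33 CPM in R848+IFN-α, R848 and IFN-α. It fell in all 3 comparisons, by log2 fold changes of -0.82, -1.95 and -1.13 for R848+IFN-α against R848, R848+IFN-α against IFN-α and R848 against IFN-α; the first was lost without R848+IFN-α replicate 3 (-0.75, adjusted p = 0.0689). Ltbp3 was not called in any comparison.

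Neighbours of the host genes were set beside them in the same way. Slc3a2 encodes the heavy chain of amino acid transporters and starts 106 bases from the start of Snhg1 on the opposite strand. It averaged 630.2 ± 42.2 CPM in R848+IFN-α, 617 ± 38.1 CPM in R848 and 477 ± 22.8 CPM in IFN-α. It rose in R848+IFN-α against IFN-α by 0.40 ± 0.08 (adjusted p = 3.08e-04) and in R848 against IFN-α by 0.37 ± 0.08 (adjusted p = 5.95e-04) on the log2 scale, and its log2 fold change in R848+IFN-α against R848 was 0.03. With library totals alone these were 0.09 (adjusted p = 0.587) in R848+IFN-α against IFN-α, called no longer, and -0.35 (adjusted p = 0.0184) in R848+IFN-α against R848, called lower. Wdr74, a ribosome assembly gene downstream of Snhg1, fell in R848+IFN-α against R848 by a log2 fold change of -0.61 ± 0.18 (adjusted p = 0.00906), a call lost without R848+IFN-α replicate 2 (0.0609) or 3 (0.0506). Syncrip, an RNA-binding protein gene near Snhg5, had log2 fold changes of -0.44 ± 0.12 in R848+IFN-α against R848 (adjusted p = 0.00502) and 0.65 ± 0.12 in R848 against IFN-α (adjusted p = 7.06e-05). Near Meg3 in the same imprinted cluster, Rian averaged 18.3 ± 1.36 CPM in R848+IFN-α, 17.8 ± 2.94 CPM in R848 and 13.9 ± 4.17 CPM in IFN-α and was not called; without IFN-α replicate 3 it was called higher in R848+IFN-α than in IFN-α (0.65, adjusted p = 0.0385) and in R848 than in IFN-α (0.62, adjusted p = 0.0439).

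Small nucleolar RNAs inside the host genes were counted in rows of their own. Of 20 small RNAs looked up, 10 had a row and 4 passed the filter, and 1 was called. Snora44, inside Snhg12, had 9 to 49 counts in R848+IFN-α libraries, 3 to 9 in R848 libraries and 2 to 12 in IFN-α libraries. Its log2 fold change was 1.83 ± 0.45 in R848+IFN-α against R848 (adjusted p = 0.00163) and 1.54 ± 0.45 in R848+IFN-α against IFN-α (adjusted p = 0.00768). Both calls were lost without R848+IFN-α replicate 3, at 1.37 (adjusted p = 0.0667) and 1.08 (adjusted p = 0.160), and the second also without IFN-α replicate 1, at 1.16 (adjusted p = 0.0584). Snord22, inside Snhg1, averaged 86.2 ± 16.0 CPM in R848+IFN-α, 27.9 ± 25.0 CPM in R848 and 57.1 ± 32.0 CPM in IFN-α and was not called in any comparison, except in R848+IFN-α against R848 with non-robust estimation (1.63, adjusted p = 0.00297). In GENCODE M21 both lie within exons of some transcript of their host, by 129 and 126 bases, so reads of host and small RNA cannot be told apart there and both sets of values are uncertain.

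Other small nucleolar RNA host genes were lower in R848+IFN-α than in R848 in 3 of 7 tested, with none higher. Of all tested genes 35.9% were called in that comparison, 19.2% higher and 16.7% lower. The shares were 33.2% in R848+IFN-α against IFN-α and 37.4% in R848 against IFN-α. Over the alternatives 1 to 4 host genes of this list were called in R848+IFN-α against R848. Snhg8 averaged 6.27 ± 1.52 CPM in R848+IFN-α and 12.9 ± 1.22 CPM in R848, a log2 fold change of -0.96 ± 0.26 (adjusted p = 0.00403). Snhg17 and Snhg3 fell by 0.80 and 0.77 on the log2 scale, at adjusted p-values of 0.0105 and 0.0186. Both of those calls were lost in DESeq2, at adjusted p-values of 0.0507 and 0.0760, and without R848+IFN-α replicate 3, at 0.0924 and 0.0577; that of Snhg3 was also lost without R848+IFN-α replicate 2 (0.0760) or R848 replicate 2 (0.0659). The median log2 fold change of the 7 was -0.60, beside -0.03 over all genes. In R848+IFN-α against IFN-α none of the 7 was called, with a median of 0.33; edgeR's unadjusted p was under 0.05 for 0 of them and DESeq2 called 0. In R848 against IFN-α, Snhg17 rose by a log2 fold change of 1.21 ± 0.26 (adjusted p = 3.87e-04), with 14.1 ± 2.69 CPM in R848 and 5.98 ± 1.96 CPM in IFN-α, and the other 6 were not called.

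Messenger RNAs of the translation machinery that carry a 5′ TOP tract were set beside the host genes. Of 16 tested, 0 rose and 4 fell in R848+IFN-α against R848, with a median of -0.11, 0 rose and 1 fell in R848+IFN-α against IFN-α, and 2 rose and 0 fell in R848 against IFN-α, where 35.9%, 33.2% and 37.4% of all tested genes were called in these comparisons. Eif4b, a translation initiation factor, fell in R848+IFN-α against R848 by a log2 fold change of -0.50 ± 0.10 (adjusted p = 1.53e-04) and against IFN-α by -0.46 ± 0.10 (adjusted p = 4.30e-04).

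Genes for proteins of the nuclear bodies in which Malat1 and Neat1 reside are read against the same shares of all tested genes. Of 25 tested paraspeckle protein genes, 1 rose and 4 fell in R848+IFN-α against R848, 4 rose and 1 fell in R848+IFN-α against IFN-α, and 3 rose and 1 fell in R848 against IFN-α. Nono, which encodes a core paraspeckle protein, averaged 134 ± 6.72 CPM in R848+IFN-α, 63.8 ± 5.36 CPM in R848 and 155 ± 6.75 CPM in IFN-α. It was higher in R848+IFN-α than in R848 by a log2 fold change of 1.07 ± 0.10 (adjusted p = 5.40e-10) and lower in R848 than in IFN-α by -1.28 ± 0.10 (adjusted p = 7.14e-12). Nono and Malat1 each had their lowest levels in the R848 group, while the 4 paraspeckle genes that fell in R848+IFN-α against R848 went the other way from Malat1. Of 16 nuclear speckle protein genes, 1 rose and 2 fell in R848+IFN-α against R848, 3 rose and 0 fell in R848+IFN-α against IFN-α, and 5 rose and 1 fell in R848 against IFN-α. Srsf2, a splicing factor of the speckle, averaged 161 ± 7.78 CPM in R848+IFN-α, 246 ± 14.3 CPM in R848 and 145 ± 8.80 CPM in IFN-α, and was highest in the group where Malat1 was lowest. Its log2 fold changes were -0.62 ± 0.09 in R848+IFN-α against R848 (adjusted p = 2.61e-06) and 0.76 ± 0.09 in R848 against IFN-α (adjusted p = 5.29e-08). Srsf3 of the same list instead had its lowest mean in R848, at 138 ± 9.81 CPM. It averaged 181 ± 13.5 CPM in R848+IFN-α and 148 ± 6.58 CPM in IFN-α, and was the 1 speckle gene that rose in R848+IFN-α against R848. A link of any of these genes to Malat1 was not tested.

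Among 20 further long noncoding RNAs tested, Mir155hg had the largest change in both comparisons with IFN-α. Mir155hg, the host transcript of the inflammatory microRNA miR-155, averaged 97.5 ± 9.78 CPM in R848+IFN-α, 45.4 ± 2.34 CPM in R848 and 2.97 ± 0.70 CPM in IFN-α. Its log2 fold change was 1.10 ± 0.12 in R848+IFN-α against R848 (adjusted p = 1.21e-08), 5.04 ± 0.20 in R848+IFN-α against IFN-α (adjusted p = 3.99e-19) and 3.93 ± 0.21 in R848 against IFN-α (adjusted p = 7.22e-16). In all, 3 rose and 2 fell in R848+IFN-α against R848, 3 rose and 0 fell in R848+IFN-α against IFN-α, and 6 rose and 0 fell in R848 against IFN-α. Of all tested genes 35.9%, 33.2% and 37.4% were called in these comparisons, so none of the 3 shares lay above its background. Kcnq1ot1, an imprinted antisense RNA, had 25.4 ± 6.40 CPM in R848+IFN-α, 47.7 ± 3.54 CPM in R848 and 24.6 ± 2.58 CPM in IFN-α. Mir99ahg, another microRNA host transcript, had 9.46 ± 1.87 CPM, 22.8 ± 6.56 CPM and 8.02 ± 1.28 CPM in the same order. Both had their highest means in the R848 group, and each was called in the comparisons with R848 and not in R848+IFN-α against IFN-α.

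**Figure D5:**
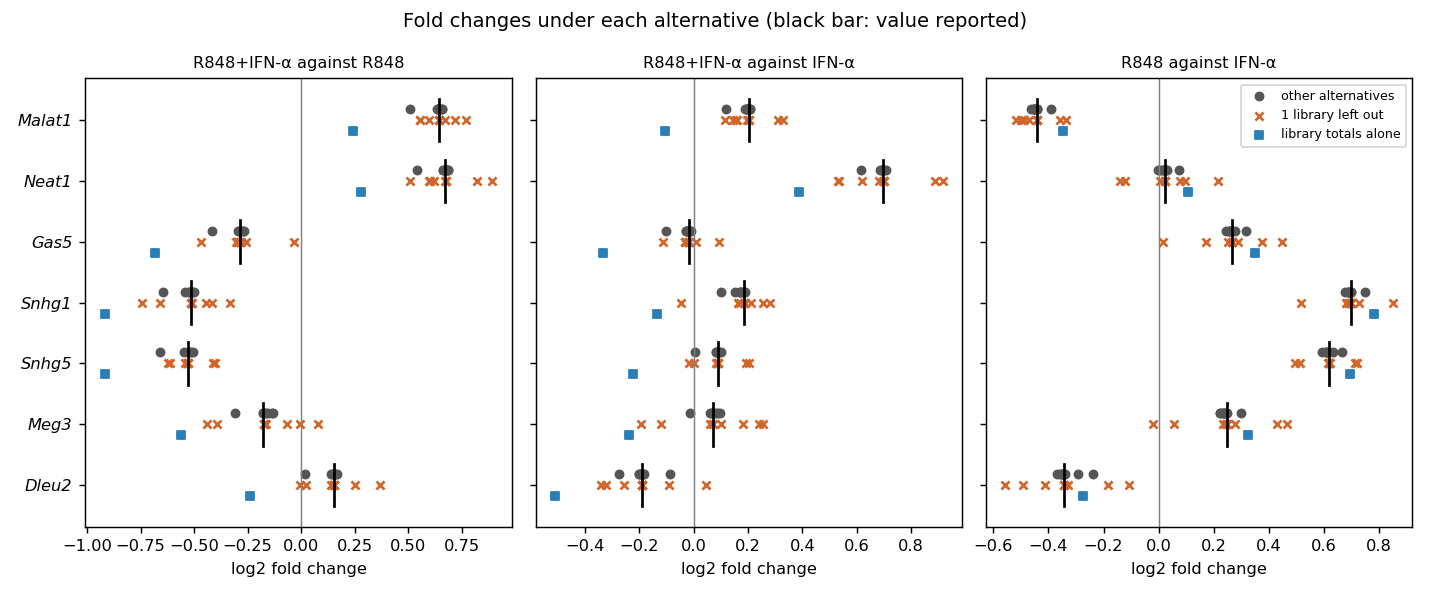
Log2 fold changes of the 7 tested RNAs under each alternative processing, 1 panel per comparison: the black bar is the value reported, crosses leave out 1 library each, squares use library totals alone and circles are the remaining alternatives. In R848+IFN-α against R848 the squares lie left of the bars, with Malat1 at 0.24 in place of 0.64.

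The plot of alternatives shows that scaling by library totals alone moved all 7 RNAs the same way in both comparisons of the R848+IFN-α group. For R848+IFN-α against R848 the called genes split into 2110 higher and 1835 lower as reported, into 1715 higher and 2861 lower with upper-quartile factors and into 1176 higher and 4976 lower with library totals alone. For R848+IFN-α against IFN-α the split was 2034 higher and 1618 lower as reported, 1697 and 2091 with upper-quartile factors and 1045 and 3759 with library totals alone. Calls in the gene lists moved with it: in R848+IFN-α against R848 that scaling called 17 of 25 paraspeckle genes in place of 5, 9 of 16 nuclear speckle genes in place of 3, all 16 messenger RNAs with a 5′ TOP tract in place of 4 and 10 of 20 further long noncoding RNAs in place of 5. For R848+IFN-α against IFN-α it called 11 of 16 messenger RNAs with a 5′ TOP tract in place of 1, and 8 of 25 paraspeckle genes in place of 5. In R848+IFN-α against R848 the paraspeckle count was 11 without R848 replicate 1 and 2 without R848+IFN-α replicate 3.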

How the data were processed

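RNA from 9 microglial libraries was sequenced after ribosomal RNA removal with a directional kit, per the labels' protocols. The authors deposited whole-number read counts per gene and strand, not normalized, made per the submitters' processing notes with CASAVA 1.8.2, Trimmomatic 0.33, STAR 2.5.1 and DESeq2 on build mm10. Which annotation was counted was not given in the sources used here. Reverse-strand counts were used, since forward-strand counts made up 1.09% to 1.503% of both strands. STAR leaves out reads that map to several places (7.22% to 8.51% of read pairs) or overlap several genes, and rows naming no gene were left out (39.3% to 44.4% of pairs lay in no gene).

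The filter (edgeR's filterByExpr by group, minimum count 10 and minimum total 15) kept 11002 genes. All 9 libraries entered 1 model of 3 group means, with TMM factors and robust quasi-likelihood estimation in edgeR 4.0.16 (R 4.3.3), with a common coefficient of variation of 0.0955. P-values were Benjamini-Hochberg adjusted over all genes tested and called under 0.05; the script was tested on simulated data. SEs are derived from the F statistic. DESeq2 1.42.0, other scalings, filters and each library left out were alternatives. "Rose" and "fell" refer to called values. Named genes are the 8 RNAs, up to 4 called genes per list with the largest change, neighbouring genes, and the 3 genes most like each RNA by Pearson correlation of log2 CPM (prior count 2), predicted genes left out; a few list genes are given further values, and some genes that the rule names are not reported here. Members and lists were chosen with earlier results of these data known.

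Positions come from GENCODE M21 (GRCm38, the assembly mm10 names), and promoters and microRNAs from RefSeq on GRCm38.p6. The labels do not say that replicates were separate cultures, so p-values measure only the variation among these samples, possibly technical; replicate pairs differed beyond counting noise (chi-square per degree of freedom 1.92 to 6.27, Rn45s left out).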

Additional observations from a re-analysis of the deposited data

Results flagged for a closer look

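Forward-strand counts, which the comparisons do not use, were above the limit that a count of 0 allows (3 counts) at 4 of the 8 genes. Over the 9 libraries they came to 189 for Malat1, 29 for Neat1, 7 for Gas5 and 20 for Dleu2. As a share of both strands this was 0.427% for Malat1, 1.09% for Neat1, 1.05% for Gas5 and 5.43% for Dleu2, where forward-strand counts over all genes made up 1.09% to 1.503% of a library. The span of the Dleu2 gene is overlapped on the opposite strand by Trim13 and Kcnrg, but in GENCODE M21 its exons share no bases with theirs. On that strand its exons share 352 bases with Gm26916, 137 with Gm27972, 114 with Gm27845 and 85 with Gm27747. The source of the forward-strand counts was not tested.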

How the results depend on the processing

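The fold changes of the 7 tested RNAs were recomputed under 20 alternatives, or 19 for Meg3 and Snhg5, which the stricter filter left out. Of these values 385 kept their side of the threshold, 20 passed it newly and 9 lost their call. Among them no called value changed sign, while some not called did, such as Malat1 in R848+IFN-α against IFN-α with library totals alone (-0.10). In R848+IFN-α against R848, 2 of the 7 were called as reported, 1 in DESeq2, 3 with upper-quartile factors, library totals alone, no low-count filter or non-robust estimation, and 1 to 3 with a library left out. Those 3 were Gas5, Snhg1 and Snhg5, all lower, with library totals alone. In R848+IFN-α against IFN-α, 0 were called as reported, 1 with library totals alone, with no low-count filter or with non-robust estimation, and 0 to 2 with a library left out. In R848 against IFN-α and among the 3 groups 2 were called, and 1 to 3 with a library left out. Over all genes, R848+IFN-α against R848 gave 6152 calls with library totals alone, against 3945 as reported. Upper-quartile factors shifted the median log2 fold change there by -0.13, and library totals alone shifted it by -0.31 in R848+IFN-α against IFN-α. With library totals alone 5 list genes reversed: Map2, Xist and Slc3a2 were at -0.0066, -0.31 and -0.35 in R848+IFN-α against R848, and Srsf3 and Srsf5 were at -0.023 and -0.035 in R848+IFN-α against IFN-α. That scaling changes the totals by construction; the cause of the other changes was not tested. Of the other list genes' values 4155 kept their side of the threshold, 157 lost their call and 31 gained one.

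Deviations of same-numbered replicates from their group means correlated at -0.10 to 0.06, with 0 of 9 over 0.1. With means of 3 libraries this gave no sign of pairing but cannot show that the libraries are unpaired. With the replicate block the members called were 2 in R848+IFN-α against R848, 0 in R848+IFN-α against IFN-α and 2 in R848 against IFN-α, and the genes called were 3995, 3701 and 4147. Depth limits Snhg12, Meg3 and Snhg5 most, with at most 10, 33 and 42 counts per library.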
